A study of Rattus norvegicus with 25 samples.

Results

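The hippocampus of rats given a thymus nuclear factor after controlled cortical impact (TNF-CCI) was compared with that of rats given thymus after the same impact (TD-CCI), gene by gene. The members were chosen by group label alone. They are 10 of the 25 libraries, 5 TNF-CCI and 5 TD-CCI, and 21064 of the 34322 genes in the count table had enough counts to be tested. TNF names the supplement here and not the cytokine tumour necrosis factor. All 25 libraries were polyA RNA from hippocampus of male Sprague-Dawley rats, adults of 6 to 7 weeks. The TNF-CCI group had the impact and the nuclear factor, and the TD-CCI group had the impact and what the labels call simply thymus. Levels are also given for the TCF-CCI group (impact and thymus cytosolic factor), the Vehicle-CCI group (impact and vehicle) and the Vehicle-sham group (vehicle, no impact), 5 libraries each. The labels give no dose, no time after injury, no brain side and no statement that each library came from its own animal, so a p-value here measures only how libraries of a group spread, which may be technical. The series title speaks of recovery and of a bovine thymus nuclear extract, and this contrast sets that fraction beside thymus.

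As background, controlled cortical impact drives a piston onto the exposed cortex above the hippocampus. The injury is known to turn microglia, the resident phagocytes of the brain, and astrocytes, its supporting glia, to reactive states. It is also known to start interferon and complement responses and to alter the activity genes of neurons. The thymus is the organ in which T cells mature, and extracts of it have long been studied for effects on immune cells.

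Library totals averaged 38.3 ± 3.96 M counts (M, 1e6) in TNF-CCI and 32.4 ± 3.34 M in TD-CCI (SD, n = 5 each). The difference of 5.96 M had a two-sided exact permutation p of 0.0238, and 0.00794 is the smallest p that 5 against 5 libraries allow. Ribosomal RNA of the mitochondrion took 4.87 ± 3.41% of counts in TNF-CCI and 6.59 ± 0.93% in TD-CCI (exact permutation p = 0.333, n = 5 each), and TNF-CCI 2 stood apart at 10.9%. Without TNF-CCI 2 the difference was -3.23 percentage points (exact permutation p = 0.00794). Within TNF-CCI a pair of libraries differed by a median SD of 0.581 on the log2 CPM scale (CPM, counts per 1e6 counts after TMM scaling), against 0.431 within TD-CCI and 0.48 between the groups. The TNF-CCI libraries were thus no closer to each other than to TD-CCI libraries. Hippocampal markers were present in all 10: 13 of 15 listed dentate granule neuron genes passed the filter on low counts, with summed levels of 787 to 1220 CPM in TNF-CCI and 897 to 1130 CPM in TD-CCI. Among the other groups, Vehicle-sham 2 stood apart, with 25.6% of counts on mitochondrial rRNA. It enters the shared estimate of spread and no mean of the comparison.

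No gene separated the nuclear factor from thymus at an adjusted p under 0.05 in edgeR's quasi-likelihood test with Benjamini-Hochberg adjustment (0 of 21064, background 0%). The smallest adjusted p was 0.817. At an unadjusted p under 0.05 there were 517 genes (2.45% of those tested), 263 higher (1.25%) and 254 lower (1.21%) in TNF-CCI. DESeq2 called 2 genes, F3 higher and LOC120097130 lower, with adjusted p of 0.0202 and 0.0386, while limma voom with quality weights called 0 and had 1409 genes at an unadjusted p under 0.05. The 5 TNF-CCI libraries lay wholly above or below the 5 TD-CCI libraries for 91 genes (0.432%), 44 above (0.209%) and 47 below (0.223%). Over all genes the log2 fold changes had a median of 0.0060, quartiles of -0.11 and 0.13, and 51.4% above 0.

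The precision differed from gene to gene. Of the 16901 genes with a mean of at least 1 CPM over the 10 libraries, 14999 (88.75%) had a 95% interval that lay within a 2-fold change in either direction. The median half-width of that interval was 0.44 on the log2 scale. These intervals are not adjusted for the number of genes tested, and no change beyond 2-fold passed the adjusted test either. Fitted log2 fold changes beyond 1 in size occurred for 109 genes, 59 higher and 50 lower in TNF-CCI, and 7 of these 109 showed no overlap between the groups. In 59 of the 109, the highest library had more than 2 times the level of the next one. TNF-CCI 1 was the highest library for 35 of the 59 genes that were higher, and TD-CCI 4 for 30 of the 50 that were lower.

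**Figure D1:**
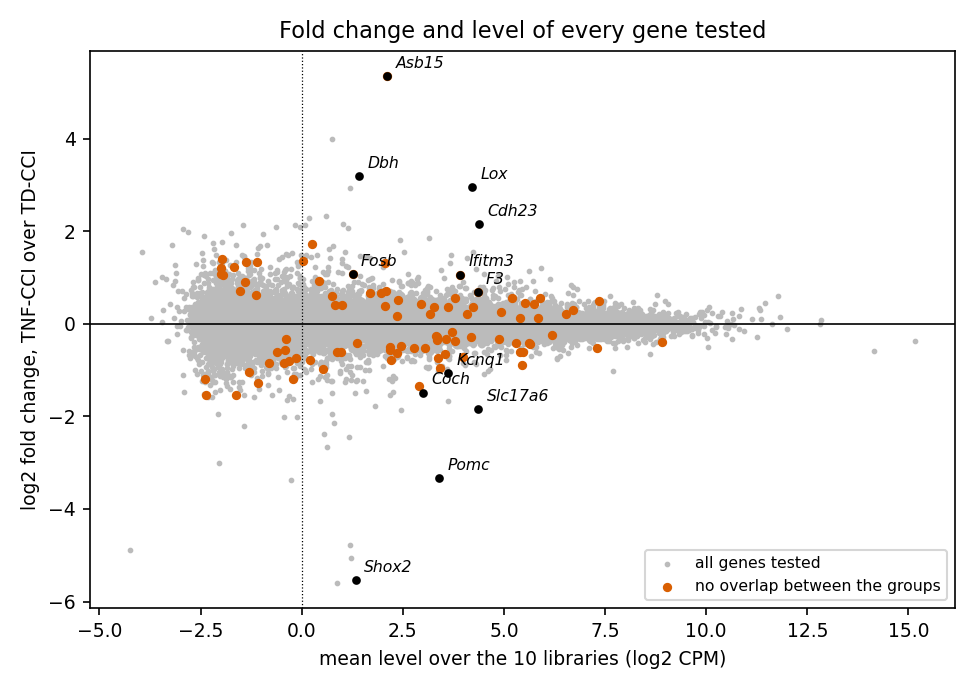
Log2 fold change, TNF-CCI over TD-CCI, against the mean level over the 10 libraries (log2 CPM) for the 21064 genes tested. Grey points are all genes, orange points the 91 genes without overlap between the groups, and black points the genes named on the plot; the gene with the highest fold change, Asb15, and the lowest among those named, Shox2, each owe it to 1 library.

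The gene with the smallest p was F3 (mRatBN7.2 chr2:209827061-209838666, plus strand), which encodes tissue factor, the cell-surface protein that starts blood coagulation and that astrocytes make in the brain. F3 measured 25.9, 25.3, 24.4, 22 and 27.9 CPM in the TNF-CCI libraries 1 to 5, against 18.1, 16.8, 14.6, 16.6 and 12.1 CPM in the TD-CCI libraries 1 to 5. All 5 TNF-CCI libraries were above all 5 TD-CCI libraries. The log2 fold change was 0.68 ± 0.14 (SE, here and for all fold changes; 95% interval 0.40 to 0.97), with an unadjusted p of 4.22e-05 and an adjusted p of 0.817 in edgeR. Its value lay between 0.60 and 0.74 under the 35 alternatives run, so the direction and size held while the call depended on the tool. Mean levels were 19.5 CPM in TCF-CCI, 18.3 CPM in Vehicle-CCI and 19.3 CPM in Vehicle-sham. The TNF-CCI mean of 25.1 ± 2.17 CPM was thus above these and the TD-CCI mean of 15.6 ± 2.33 CPM below them (SD, n = 5 each).

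Immediate early genes are those that neurons switch on within minutes of activity. Fosb, an AP-1 transcription factor subunit (chr1:78954312-78961492, minus strand), measured 5.34, 3.42, 2.50, 2.89 and 2.06 CPM in TNF-CCI 1 to 5, against 1.46, 1.61, 1.32, 1.54 and 1.79 CPM in TD-CCI 1 to 5. The groups did not overlap, and the spread was far wider in TNF-CCI. The log2 fold change was 1.07 ± 0.25 (95% interval 0.56 to 1.57, edgeR adjusted p = 0.876). Arc, a synaptic regulator transcribed on activity, measured 237, 29.5, 48.6, 42.2 and 63.1 CPM in TNF-CCI 1 to 5, against 27.2, 45.9, 35.7, 35.4 and 39.1 CPM in TD-CCI 1 to 5. Here TNF-CCI 1 was far above all others, TNF-CCI 2 lay within the TD-CCI range, and the log2 fold change of 1.2 ± 0.40 was 0.32 without TNF-CCI 1. Btg2, an antiproliferative early gene, averaged 10.9 ± 0.519 CPM in TNF-CCI and 8.61 ± 1.72 CPM in TD-CCI (SD, n = 5 each), with 4 TNF-CCI libraries above all TD-CCI libraries. Of the 21 listed early genes, 0 passed the test, 3 were higher and 0 lower at an unadjusted p under 0.05 in edgeR (1.25% and 1.21% over all genes), and 15 had a log2 fold change above 0. Their median was 0.23, against 0.0060 over all genes, and 0.04 without TNF-CCI 1.

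**Figure D2:**
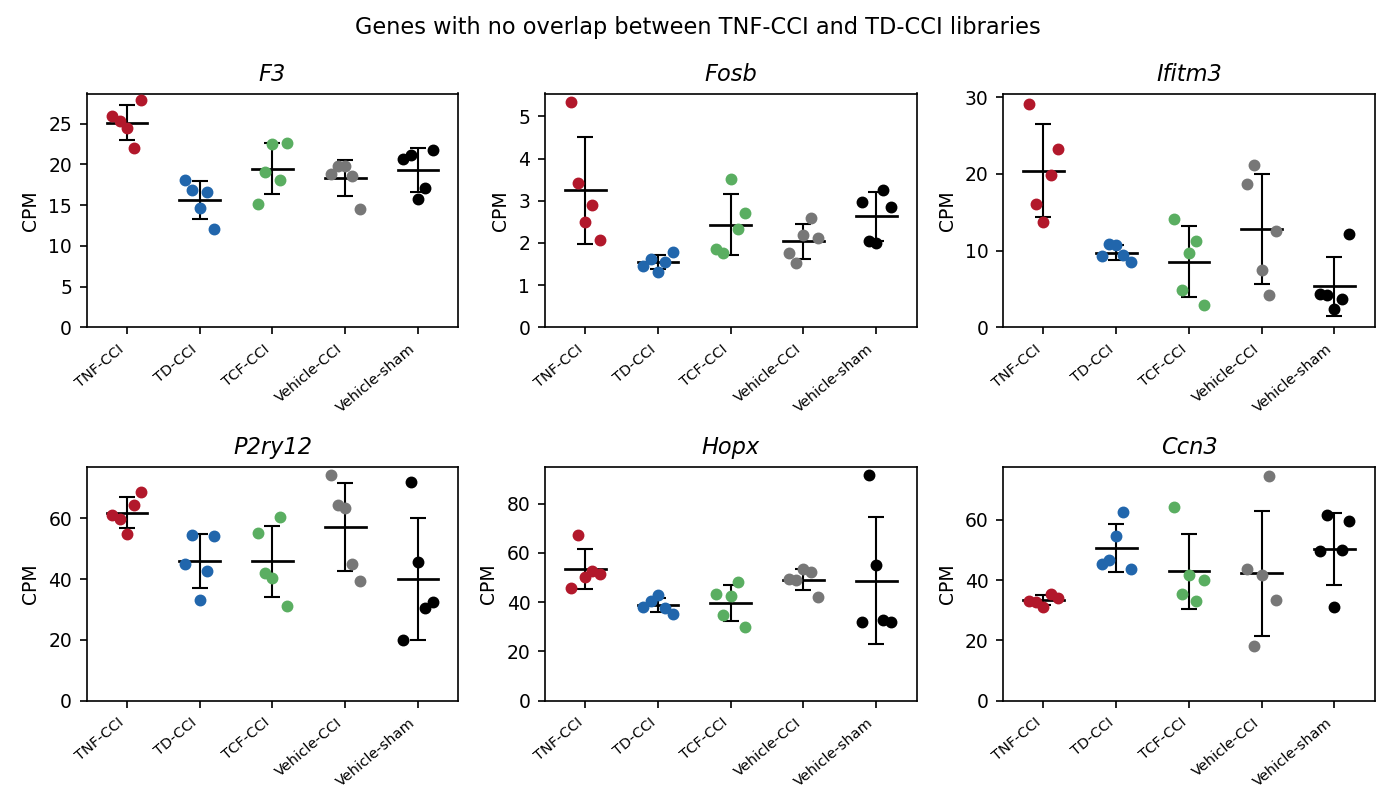
Levels (CPM) of 6 genes whose TNF-CCI and TD-CCI libraries do not overlap, in each of the 5 groups; points are libraries, and the bar and whiskers are the mean and SD of 5. F3, Fosb, Ifitm3, P2ry12 and Hopx lie higher and Ccn3 lower in TNF-CCI than in TD-CCI, and none passed the edgeR test.

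Interferon response genes formed the one list whose members were all on the same side. The lists were chosen with earlier results of these data known, so this is a description and not a test. Interferons bind receptors on the cell surface and act through transcription factors, which bind the interferon-stimulated response element upstream of their targets. All 23 listed genes were tested and all 23 had a log2 fold change above 0, ranging from 0.16 to 2.07. The median was 0.47, against 51.4% above 0 and a median of 0.0060 over all genes. Under 5 of the alternatives 21 or 22 members were above 0, with 21 without TNF-CCI 1 and TD-CCI 4 together. However, 0 of the 23 passed the test, 2 were higher and 0 lower at an unadjusted p under 0.05 in edgeR, and 1 showed no overlap, where over all genes 1.25% were higher and 1.21% lower at that p and 0.432% showed no overlap. In bulk tissue, more cells of a type and more RNA per cell cannot be told apart, here and for every list below.

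Ifitm3 (chr1:196111026-196112135, minus strand), a membrane protein that blocks virus entry, was the member without overlap. It measured 29.1, 16.1, 13.7, 19.8 and 23.2 CPM in TNF-CCI 1 to 5, against 9.26, 10.8, 10.7, 9.39 and 8.56 CPM in TD-CCI 1 to 5. Mean levels were 8.55 CPM in TCF-CCI, 12.8 CPM in Vehicle-CCI and 5.37 CPM in Vehicle-sham. The lowest TNF-CCI library was thus above the highest TD-CCI library. Vehicle-CCI libraries ran from 4.17 to 21.1 CPM and TCF-CCI libraries from 2.89 to 14.1 CPM, so both groups overlapped TNF-CCI. The log2 fold change was 1.07 ± 0.42 (95% interval 0.20 to 1.93, edgeR adjusted p = 1).

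Isg15, a ubiquitin-like protein attached to other proteins, measured 10.6, 11.2, 2.79, 9.14 and 8.25 CPM in TNF-CCI 1 to 5, against 4.73, 3.1, 3.29, 5.76 and 3.12 CPM in TD-CCI 1 to 5. TNF-CCI 3 was below all TD-CCI libraries and the other 4 were above them. Ifit1, which binds foreign RNA, measured 6.56, 0.112, 1.5, 5.66 and 4.12 CPM in TNF-CCI 1 to 5, against 0.141, 0.127, 0.147, 0.137 and 3.78 CPM in TD-CCI 1 to 5. Ifit1 was near 0 in TNF-CCI 2 and in 4 TD-CCI libraries and above 1 CPM in the other 5, so both groups held low and high libraries. Ifit3, the partner of Ifit1, was chosen after its values were seen and measured 10.0, 5.25, 2.61, 9.70 and 6.97 CPM in TNF-CCI 1 to 5, against 7.12, 3.89, 2.38, 3.1 and 1.99 CPM in TD-CCI 1 to 5. The median deviation of the 23 genes from their 10-library mean was -0.41 on the log2 scale in TNF-CCI 3 and between 0.24 and 0.64 in the other TNF-CCI libraries. It was 0.36 in TD-CCI 1 and between -0.55 and -0.27 in the other TD-CCI libraries, so 1 library of each group lay on the other group's side. In Vehicle-CCI the same median deviation ran from -0.934 to 0.473. Vehicle-sham 5, without impact, was the highest of all 25 libraries at 0.768, and the other Vehicle-sham libraries lay between -1.34 and -0.502.

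The sequences show where the response element lies in genes of this list. The 250 bases before the gene start are given from RefSeq (GRCr8), with matches to GAAA, any 2 bases and GAAA on either strand in capitals. Of the 16 list members with a window, 10 held a match, against 3.41% of 33469 rat windows of that length. The windows are chr1:205541759-205542008 (minus strand) for Ifitm3 and chr1:241527076-241527325 (plus strand) for Ifit3.
Ifitm3: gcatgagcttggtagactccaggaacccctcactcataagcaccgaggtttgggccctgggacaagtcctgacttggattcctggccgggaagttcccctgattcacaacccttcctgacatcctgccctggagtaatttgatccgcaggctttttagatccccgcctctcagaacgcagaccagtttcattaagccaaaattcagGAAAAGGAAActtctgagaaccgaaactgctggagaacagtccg
Ifit3: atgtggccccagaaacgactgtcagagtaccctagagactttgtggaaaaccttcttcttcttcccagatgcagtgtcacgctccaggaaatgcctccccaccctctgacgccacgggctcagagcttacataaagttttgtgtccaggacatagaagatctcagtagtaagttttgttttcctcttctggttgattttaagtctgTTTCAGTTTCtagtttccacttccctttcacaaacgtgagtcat
A match describes letters in the window and does not show that a factor was bound there in these rats.

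**Figure D3:**
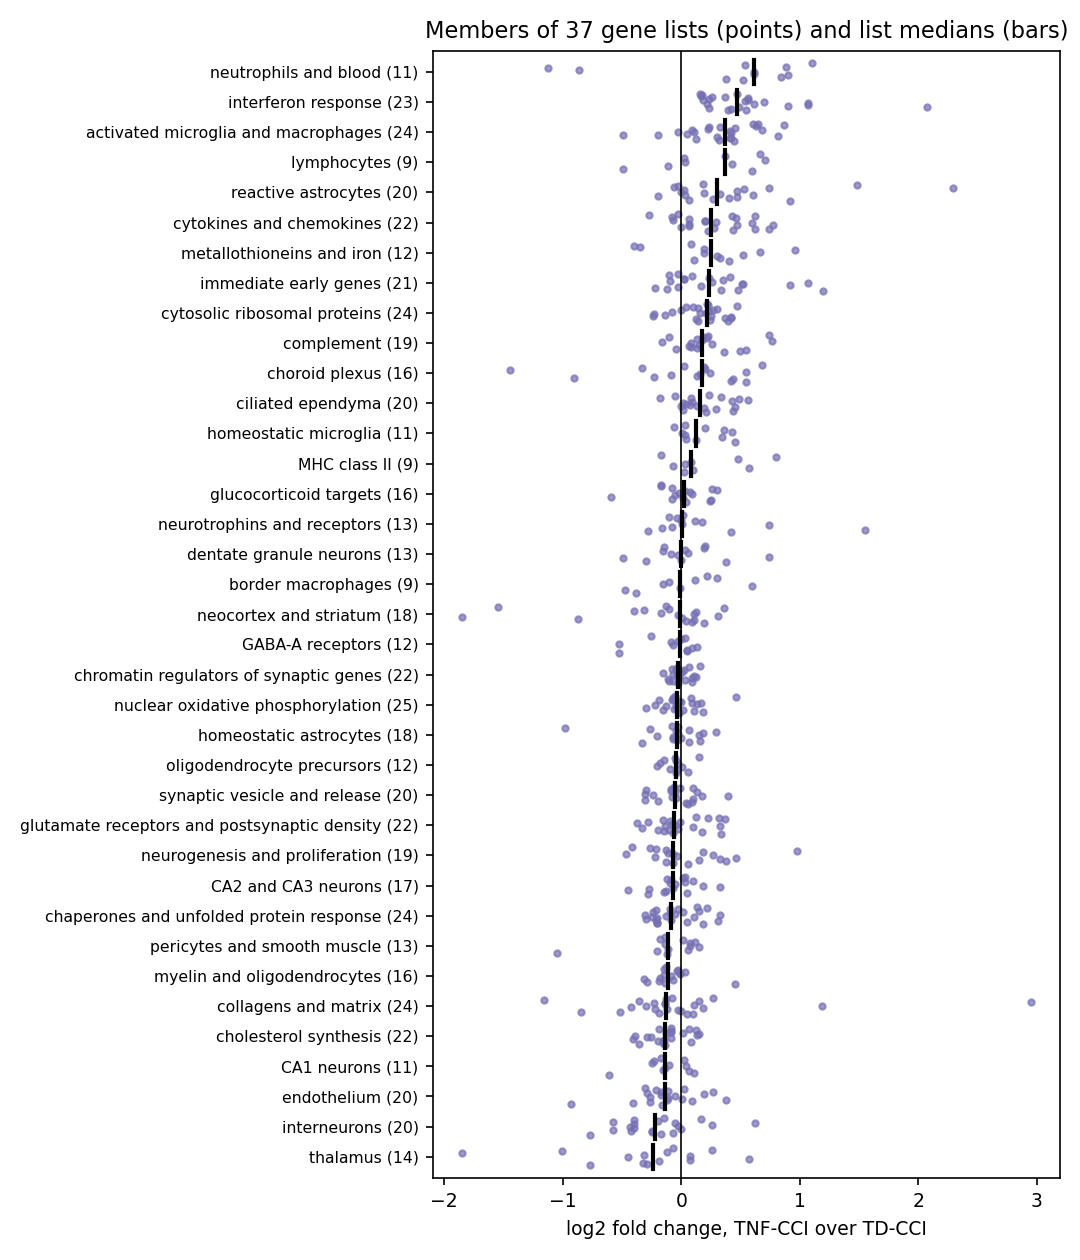
Log2 fold changes, TNF-CCI over TD-CCI, of the tested members of 37 gene lists (points) with the median of each list (black bar) and the number tested in brackets. The interferon list lies wholly above 0 with a median of 0.47, while the lists for thalamus (-0.24) and interneurons (-0.22) have the lowest medians.

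Microglial genes leaned the same way, and again none passed. Of the 24 genes of activated microglia and macrophages, 21 were above 0 with a median log2 fold change of 0.37, and 4 were higher and 0 lower at an unadjusted p under 0.05 in edgeR, where over all genes 51.4% were above 0, 1.25% higher and 1.21% lower. The median was 0.17 with limma voom. Tyrobp, the signalling adaptor of the Trem2 receptor, measured 64.3, 39.8, 27.3, 46.8 and 42.5 CPM in TNF-CCI 1 to 5, against 30.9, 39.8, 21.4, 23.8 and 24.9 CPM in TD-CCI 1 to 5. TNF-CCI 1, 4 and 5 were above all TD-CCI libraries, TNF-CCI 2 was level with the highest of them, and TNF-CCI 3 lay within their range. Cd63, a tetraspanin of late endosomes, averaged 118 ± 18.5 CPM in TNF-CCI and 88.5 ± 10.9 CPM in TD-CCI, and Fabp5, a fatty acid carrier, averaged 71.4 ± 5.96 CPM in TNF-CCI and 53.8 ± 12.0 CPM in TD-CCI (SD, n = 5 each). Cd68, the lysosomal phagocyte marker, measured 14.1, 6.34, 5.90, 6.22 and 12.7 CPM in TNF-CCI 1 to 5, against 10.0, 5.70, 5.46, 4.53 and 8.26 CPM in TD-CCI 1 to 5. TNF-CCI 1 and 5 were above all TD-CCI libraries, and the log2 fold change of 0.41 ± 0.52 had a 95% interval from -0.66 to 1.49. Without TNF-CCI 1 and TD-CCI 4 together the list median was 0.20, with 17 of 24 above 0.

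Among homeostatic microglial genes, P2ry12 and P2ry13, neighbouring purine receptors on chromosome 2, showed no overlap and were higher in TNF-CCI, as were 0.209% of all genes. P2ry12 measured 61.1, 59.8, 54.9, 64.3 and 68.7 CPM in TNF-CCI 1 to 5, against 45, 54.4, 33.0, 42.6 and 54.1 CPM in TD-CCI 1 to 5. P2ry13 averaged 13.8 ± 1.08 CPM in TNF-CCI and 10.8 ± 1.70 CPM in TD-CCI (SD, n = 5 each). The gap between the groups was small, 54.9 CPM for the lowest TNF-CCI library and 54.4 CPM for the highest TD-CCI library in P2ry12. Its log2 fold change was 0.43 ± 0.25 (edgeR adjusted p = 1). Aif1, the cytoskeletal microglial marker also called Iba1, averaged 49.5 ± 8.97 CPM in TNF-CCI and 36.2 ± 9.18 CPM in TD-CCI (SD, n = 5 each), with overlap. Of 11 homeostatic genes tested, 10 were above 0, yet the median of 0.13 was smaller than that of the activated list and was 0.01 without TNF-CCI 5.

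The complement list, whose C1q genes microglia make, had 16 of 19 members above 0 and a median log2 fold change of 0.18. C1qb measured 53.4, 34.1, 25.7, 38.5 and 53.1 CPM in TNF-CCI 1 to 5, against 37.3, 23.4, 25.2, 26.5 and 33.0 CPM in TD-CCI 1 to 5, so TNF-CCI 1, 4 and 5 were above all TD-CCI libraries. Cd55, which protects cells from complement, had the smallest p of the list with 26.3, 6.43, 9.58, 6.96 and 4.27 CPM in TNF-CCI 1 to 5, against 7.96, 7.5, 6.17, 6.75 and 2.99 CPM in TD-CCI 1 to 5. The Cd55 fold change came mostly from TNF-CCI 1, with a log2 value of 0.77 over all libraries and 0.12 without it. The list median was -0.06 without TNF-CCI 1, so its sign rested on that library. RT1-Da, a class II antigen-presenting chain, ran from 3.32 to 74.8 CPM in TNF-CCI and from 7.89 to 24.7 CPM in TD-CCI. Class II genes as a list had 7 of 9 above 0 and a median of 0.08, which was -0.10 without TNF-CCI 1 and -0.325 with limma voom, and the TNF-CCI libraries 1 and 3 were the highest and lowest of all 10.

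Il33, an alarmin that glia release on injury, averaged 61.6 ± 12.7 CPM in TNF-CCI and 44.8 ± 7.80 CPM in TD-CCI (SD, n = 5 each), and its log2 fold change was 0.46 ± 0.20 with an edgeR adjusted p of 1. The 22 tested cytokine and chemokine genes had 17 above 0 and a median of 0.25, with 1 higher at an unadjusted p under 0.05 in edgeR. Over all genes 51.4% were above 0 and 1.25% were higher at that p. The median of this list was 0.04 without TNF-CCI 1. Tnfsf13, a cytokine of B cell survival also named APRIL, measured 34.8, 31.1, 25.8, 30.4 and 39.4 CPM in TNF-CCI 1 to 5, against 18.4, 27.3, 21.3, 22.9 and 15.6 CPM in TD-CCI 1 to 5. Only TD-CCI 2 entered the TNF-CCI range, and the log2 fold change was 0.62 ± 0.17 (95% interval 0.27 to 0.96). Plac8, a small cysteine-rich protein of immune cells, measured 6.83, 3.87, 3.45, 7.66 and 7.79 CPM in TNF-CCI 1 to 5, against 3.18, 1.71, 1.73, 2.55 and 2.79 CPM in TD-CCI 1 to 5, without overlap. Its log2 fold change was 1.31 ± 0.42 (edgeR adjusted p = 1). Lymphocyte genes were sparse in both groups, with 9 of 17 members tested, 7 of them above 0, and summed levels of 29.4 to 77.2 CPM in TNF-CCI and 27.1 to 78.7 CPM in TD-CCI. Border macrophage genes were evenly placed, with 4 of 9 above 0 and a median of -0.0072.

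Reactive astrocyte genes had 16 of 20 members above 0 and a median log2 fold change of 0.30, which was 0.12 without TNF-CCI 1. Gfap, the intermediate filament of astrocytes, measured 7940, 1970, 2780, 2530 and 5790 CPM in TNF-CCI 1 to 5, against 1990, 3260, 2420, 3550 and 2620 CPM in TD-CCI 1 to 5. TNF-CCI 1 and 5 were above all TD-CCI libraries and TNF-CCI 2 below them, and the log2 fold change of 0.60 ± 0.39 had a 95% interval from -0.19 to 1.40. Timp1, an inhibitor of matrix metalloproteinases, measured 62.3, 6.68, 6.47, 9.83 and 10.6 CPM in TNF-CCI 1 to 5, against 9.46, 6.33, 6.52, 4.64 and 7.33 CPM in TD-CCI 1 to 5. Its log2 fold change was 1.48 ± 0.51 and 0.29 without TNF-CCI 1. Serpina3n, a secreted protease inhibitor of reactive astrocytes, was low, with 0.561, 0.477, 1.05, 0.205 and 7.03 CPM in TNF-CCI 1 to 5, against 0.732, 0.0317, 0.0881, 0.110 and 0.962 CPM in TD-CCI 1 to 5. TNF-CCI 5 alone carried most of that level. Homeostatic astrocyte genes had 6 of 18 above 0 and a median of -0.035.

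Metallothioneins bind zinc and copper and are induced by metals and stress through the factor MTF1. Mt2A (chr19:10832009-10832783, minus strand) measured 149, 57.1, 66.3, 80.0 and 115 CPM in TNF-CCI 1 to 5, against 39.3, 66.9, 33.8, 45.7 and 54.3 CPM in TD-CCI 1 to 5. TNF-CCI 1, 4 and 5 were above all TD-CCI libraries, and TD-CCI 2 lay within the TNF-CCI range. Its log2 fold change was 0.96 ± 0.31 (95% interval 0.32 to 1.6, edgeR adjusted p = 1), and the mean was 43.1 CPM in TCF-CCI, 61.7 CPM in Vehicle-CCI and 30.6 CPM in Vehicle-sham. Mt1, its neighbour on the chromosome, measured 14.8, 10.4, 5.40, 7.30 and 10.8 CPM in TNF-CCI 1 to 5, against 7.34, 5.76, 5.76, 6.42 and 5.47 CPM in TD-CCI 1 to 5. TNF-CCI 1 and 5 were thus the highest libraries for both genes. The pair differed in TNF-CCI 2, which was close to TNF-CCI 5 for Mt1 and the lowest of its group for Mt2A. The pair are closely similar paralogs, and reads that fit both would make their levels uncertain. Ftl1, the ferritin light chain that stores iron, averaged 334 ± 55.4 CPM in TNF-CCI and 266 ± 14.7 CPM in TD-CCI (SD, n = 5 each). The list of 12 metallothionein and iron genes had 10 above 0, a median of 0.25, and 2 higher at an unadjusted p under 0.05 in edgeR. Over all genes 51.4% were above 0 and 1.25% were higher at that p.

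The metal response element to which MTF1 binds has the core TGCRCNC, where R is A or G. The search used the looser pattern TGCNCNC, with any base at N. Its matches on either strand in the 250 bases before the start of both genes are in capitals (RefSeq, GRCr8). GAGGGCA in Mt2A and GAGAGCA in Mt1 match the looser pattern only. The windows are chr19:10838709-10838958 for Mt2A, with 5 matches, and chr19:10832976-10833225 for Mt1, with 7 matches, both on the minus strand. A match to the looser pattern was present in 6 of 9 list members with a window and in 43.4% of all windows of that length.
Mt2A: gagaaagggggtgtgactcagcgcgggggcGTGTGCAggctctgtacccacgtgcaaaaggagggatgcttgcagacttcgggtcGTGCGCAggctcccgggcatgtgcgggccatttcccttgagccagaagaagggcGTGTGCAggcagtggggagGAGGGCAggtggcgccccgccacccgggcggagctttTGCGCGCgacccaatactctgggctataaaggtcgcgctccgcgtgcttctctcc
Mt1: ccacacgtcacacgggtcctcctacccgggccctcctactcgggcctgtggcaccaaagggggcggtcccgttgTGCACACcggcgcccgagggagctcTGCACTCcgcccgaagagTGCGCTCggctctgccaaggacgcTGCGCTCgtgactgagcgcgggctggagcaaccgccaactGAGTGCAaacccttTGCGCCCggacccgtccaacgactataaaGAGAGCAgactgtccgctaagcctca
The pattern searched is short and common, so its presence alone does not mark these genes out.

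**Figure D4:**
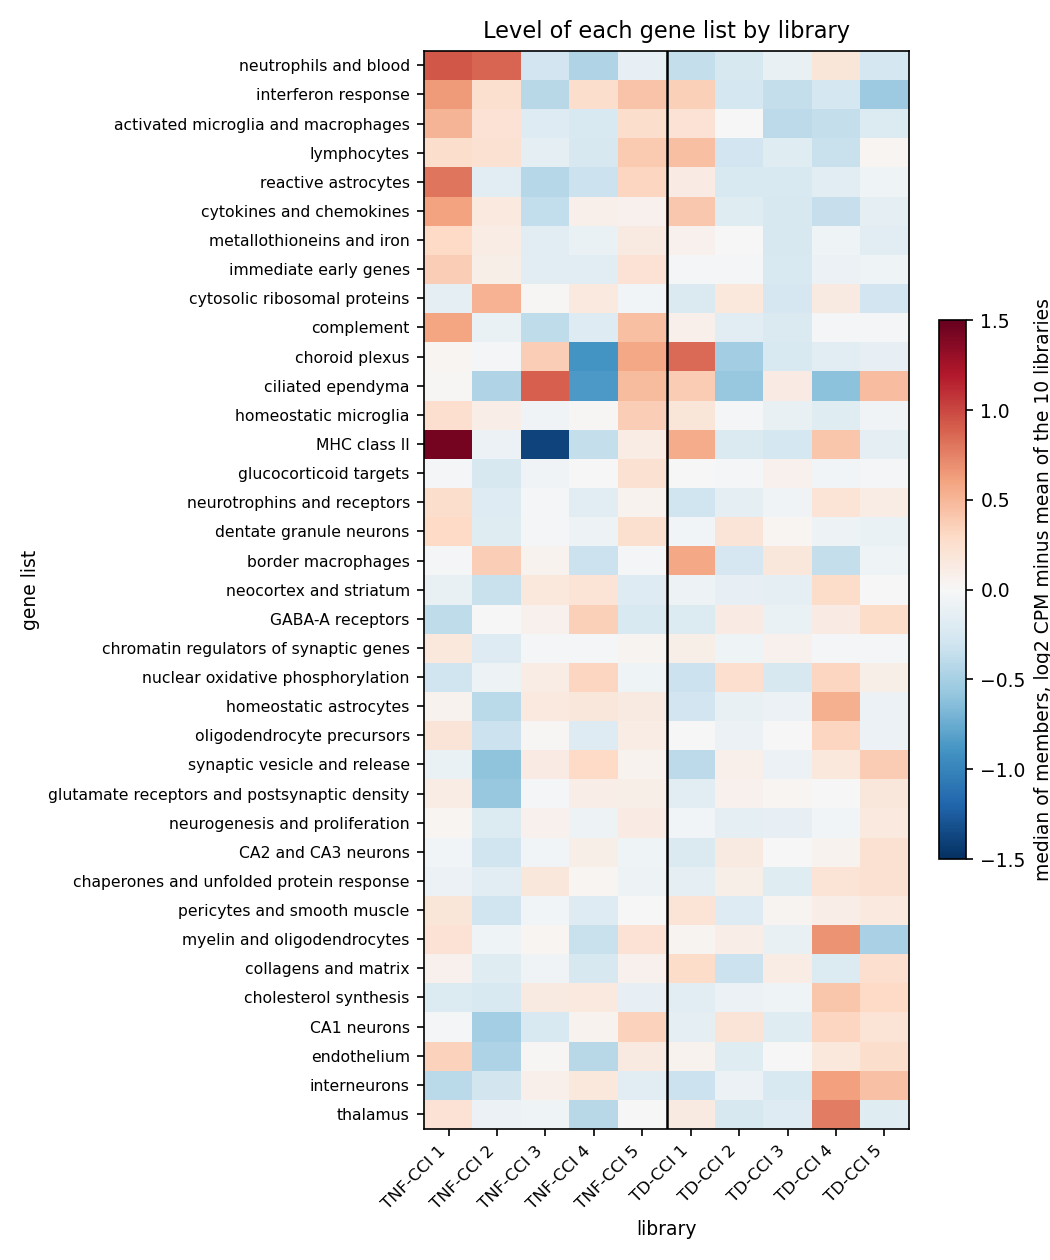
Median level of the members of each of 37 gene lists in the 10 libraries, as log2 CPM minus the member's mean over the 10, with the 5 TNF-CCI libraries on the left and the 5 TD-CCI libraries on the right; red is above and blue below the mean. Interferon genes are at 0.64 in TNF-CCI 1 and -0.41 in TNF-CCI 3, and thalamic genes at 0.77 in TD-CCI 4.

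Neuronal lists stayed near 0 or slightly below. CA1 pyramidal genes had 4 of 11 above 0 with a median log2 fold change of -0.14, CA2 and CA3 genes 7 of 17 with -0.07, and dentate granule genes 6 of 13 with -0.0023. Ccn3, a secreted matrix-associated protein on the CA1 list, measured 33.0, 32.8, 31.0, 35.5 and 33.9 CPM in TNF-CCI 1 to 5, against 45.3, 46.6, 54.7, 62.6 and 43.8 CPM in TD-CCI 1 to 5. The TNF-CCI values were closely grouped and all below TD-CCI, with a log2 fold change of -0.61 ± 0.25 (95% interval -1.11 to -0.10, edgeR adjusted p = 1). The Ccn3 mean was 42.9 CPM in TCF-CCI, 42.2 CPM in Vehicle-CCI and 50.2 CPM in Vehicle-sham, each also above the TNF-CCI mean of 33.2 CPM. Unlike TD-CCI, each of these groups overlapped TNF-CCI, with 33.2 to 64.3, 18 to 74.6 and 31.1 to 61.4 CPM in that order. Hopx, a homeodomain protein of neural stem cells and astrocytes, measured 45.9, 67.4, 50.2, 52.5 and 51.5 CPM in TNF-CCI 1 to 5, against 38.1, 40.6, 43.0, 37.5 and 35.2 CPM in TD-CCI 1 to 5, without overlap (log2 fold change 0.46 ± 0.22). The neurogenesis and proliferation list that holds it had 8 of 19 above 0 and a median of -0.07.

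Interneuron genes had 4 of 20 above 0 and a median of -0.22, with 2 lower at an unadjusted p under 0.05 in edgeR. Over all genes 51.4% were above 0 and 1.21% were lower at that p. Reln, a secreted guidance protein of interneurons, measured 27, 24.0, 35.4, 30.3 and 28.4 CPM in TNF-CCI 1 to 5, against 31.5, 30.8, 28.9, 79.6 and 45.4 CPM in TD-CCI 1 to 5. Gad1, which makes the transmitter GABA, measured 47.6, 68.4, 84.5, 87.9 and 62.8 CPM in TNF-CCI 1 to 5, against 68.6, 91.4, 65.2, 138 and 108 CPM in TD-CCI 1 to 5. TD-CCI 4 was the highest library for both. Kcnc2, a fast potassium channel of interneurons, had its highest value in TD-CCI 4 as well, 83.5 CPM against 46.6 CPM in the next TD-CCI library and 48.3 CPM in the highest TNF-CCI library. The list of GABA-A receptor subunits had 6 of 12 above 0 and a median of -0.01. The interneuron median was -0.12 without TD-CCI 4 and -0.13 without TD-CCI 5, so about as much of it came from each.

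TD-CCI 4 was more than 2 times the next library in 23 of the 50 genes that were lower by a log2 fold change beyond 1. Slc17a6, the vesicular glutamate transporter of thalamic and other subcortical neurons, measured 5.02, 10.8, 10.8, 9.35 and 8.76 CPM in TNF-CCI 1 to 5, against 10.7, 13.5, 8.08, 115 and 13.6 CPM in TD-CCI 1 to 5. Tcf7l2, a transcription factor abundant in thalamus, measured 20.1, 18.8, 13, 9.55 and 18.7 CPM in TNF-CCI 1 to 5, against 21.2, 16.2, 16.6, 92.4 and 15.1 CPM in TD-CCI 1 to 5. In both genes TD-CCI 4 was several times every other library and the remaining 9 overlapped. Their log2 fold changes were -1.85 ± 0.55 and -1.01 ± 0.37, and without TD-CCI 4 they were -0.36 and -0.10. The thalamus list, 14 of 15 members tested, summed to 143 to 257 CPM in TNF-CCI and 170 to 222 CPM in TD-CCI other than TD-CCI 4, which reached 487 CPM. Its median of -0.24 was -0.02 without that library.

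Some other genes high in TD-CCI 4 are known from regions outside the hippocampus. Shox2, a homeobox gene of thalamus, measured 23.5 CPM there and at most 0.477 CPM in TNF-CCI and 0.957 CPM in the other TD-CCI libraries. Tfap2d, a transcription factor known from the developing midbrain of mice, measured 17.7 CPM there and at most 0.140 CPM in the rest of the 10. Tac1, the precursor of substance P, measured 21.2 CPM there and at most 3.53 CPM in TNF-CCI and 4.91 CPM in the other TD-CCI libraries. Foxp2, a transcription factor of thalamus, striatum and deep cortex, was at 31.3 CPM, and Drd2, the dopamine receptor of striatal and midbrain neurons, at 7.36 CPM. Tac1, Foxp2 and Drd2 had the smallest p of the neocortical and striatal list. That list as a whole did not lean to TD-CCI, with 9 of 18 above 0 and a median of -0.0089. Slc6a11, an astrocytic GABA transporter, was at 110 CPM in TD-CCI 4 against at most 21.7 CPM in TNF-CCI and 18.3 CPM in the other TD-CCI libraries. Without TD-CCI 4 the log2 fold changes of Drd2 and Slc6a11 were above 0, at 0.03 and 0.24. Tfap2d was then at the level of a few counts in every TNF-CCI and TD-CCI library left. TD-CCI 4 also had the highest sum of myelin genes of the 10 libraries compared, 23900 CPM. It was 10600 to 16600 CPM in TNF-CCI and 8760 to 14900 CPM in the other TD-CCI libraries. High sums were not particular to TD-CCI 4, since Vehicle-CCI ran from 11300 to 28300 CPM and Vehicle-sham from 11600 to 19800 CPM. Whether tissue from a neighbouring region entered that library was not tested.

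TNF-CCI 1 was more than 2 times the next library in 27 of the 59 genes that were higher by a log2 fold change beyond 1. Lox, an enzyme that crosslinks collagen, measured 157, 2.05, 1.61, 1.49 and 2.97 CPM in TNF-CCI 1 to 5, against 6.11, 3.04, 3.14, 2.09 and 6.93 CPM in TD-CCI 1 to 5. The fitted log2 fold change was 2.95 ± 0.91, yet without TNF-CCI 1 it was -1.07, since the other TNF-CCI libraries were at or below the TD-CCI range. Inhba, a subunit of activin, measured 106, 14.1, 5.97, 6.09 and 7.34 CPM in TNF-CCI 1 to 5, against 8.86, 8.74, 8.34, 9.74 and 12.2 CPM in TD-CCI 1 to 5. Cdh23, a cadherin known from hair cells, measured 135 CPM in TNF-CCI 1, 5.27 to 12.3 CPM in the other TNF-CCI libraries and 5.27 to 10.4 CPM in TD-CCI. Both genes were several times higher in TNF-CCI 1 than in any other library, and the groups otherwise overlapped.

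Neuronal genes were among those high in TNF-CCI 1. Bdnf, the neurotrophin induced by activity, measured 67.2, 33.0, 22.2, 25.4 and 23.9 CPM in TNF-CCI 1 to 5, against 22.9, 29.8, 22.3, 25.8 and 27.9 CPM in TD-CCI 1 to 5, and its log2 fold change was 0.42 ± 0.27 with it and 0.02 without it. Nptx2, a synaptic pentraxin induced by activity, was at 92.9 CPM in TNF-CCI 1 against 11.4 to 23.7 CPM in the other TNF-CCI libraries and 13.8 to 28.6 CPM in TD-CCI. Sox11, a factor of immature neurons, was at 30.8 CPM against 3.24 to 6.76 CPM in the other TNF-CCI libraries and 2.88 to 7.83 CPM in TD-CCI. Glis3, on the dentate list, was at 96.5 CPM against 24.8 to 29.3 CPM in the other TNF-CCI libraries and 15.7 to 32.5 CPM in TD-CCI. Dbh, the enzyme that makes noradrenaline, was at 21.9 CPM against 0.256 to 0.928 CPM in the other TNF-CCI libraries and 0.338 to 0.696 CPM in TD-CCI. The hippocampal early gene Arc and the astrocyte genes Gfap and Timp1 above had their highest value in the same library.

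**Figure D5:**
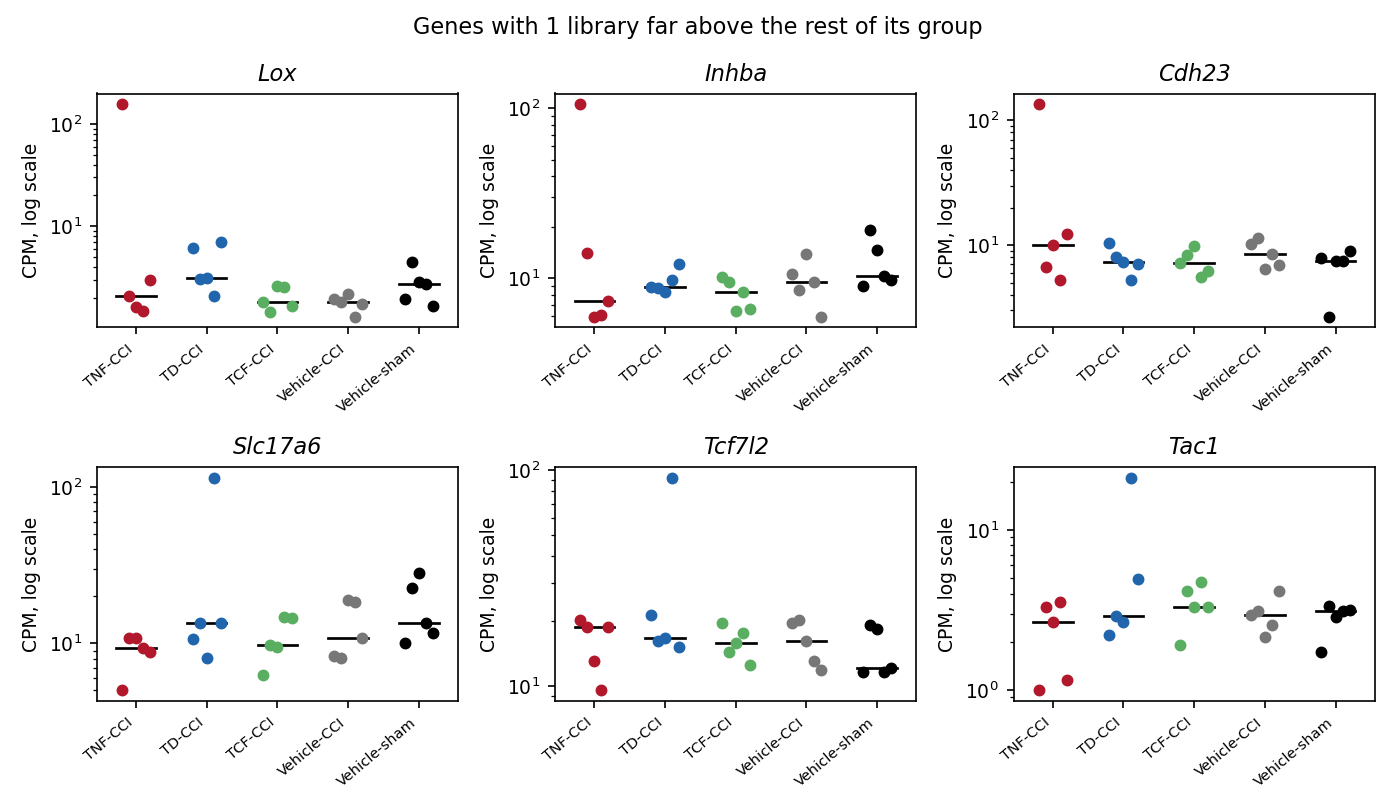
Levels (CPM, log scale) of 6 genes in the 5 groups, with points for libraries and a bar for the median of 5. Lox, Inhba and Cdh23 have 1 TNF-CCI library at 157, 106 and 135 CPM, and Slc17a6, Tcf7l2 and Tac1 have 1 TD-CCI library at 115, 92.4 and 21.2 CPM, far from the other points of their group.

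Some genes of connective tissue were high in TD-CCI 1. Col3a1, a fibrillar collagen, measured 9.51, 19.4, 10.7, 7.48 and 10.1 CPM in TNF-CCI 1 to 5, against 57.4, 9.34, 10.8, 11.2 and 13.9 CPM in TD-CCI 1 to 5. Its log2 fold change was -0.84 ± 0.44 and 0.02 without TD-CCI 1. Coch, a secreted protein known from the inner ear, measured 2.93, 6.87, 3.76, 4.48 and 3.11 CPM in TNF-CCI 1 to 5, against 23.2, 5.86, 5.58, 18.8 and 5.84 CPM in TD-CCI 1 to 5. TD-CCI 1 and 4 were high for Coch, and its log2 fold change was -1.49 ± 0.34 (95% interval -2.20 to -0.78, edgeR adjusted p = 0.876). Acta2, smooth muscle actin, averaged 1.48 ± 0.648 CPM in TNF-CCI and 3.07 ± 1.17 CPM in TD-CCI (SD, n = 5 each), with overlap. Across the lists, collagens and matrix had 9 of 24 above 0 and a median of -0.12, endothelium 6 of 20 and -0.14, and pericytes and smooth muscle 6 of 13 and -0.11. On leaving out 1 library the median was 0.01 for collagens and matrix (without TNF-CCI 2), -0.04 for endothelium (without TNF-CCI 2) and 0.02 for pericytes and smooth muscle (without TNF-CCI 4). The summed endothelial level was highest in TNF-CCI 1, at 418 CPM, with 339 CPM in TD-CCI 1. In each list 0 members passed the test.

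A few further genes stood out by p without passing. Kcnq1, a potassium channel subunit of epithelia and heart, measured 5.90, 15.8, 7.13, 4.79 and 5.88 CPM in TNF-CCI 1 to 5, against 16.3, 14.4, 17.8, 17.1 and 17.1 CPM in TD-CCI 1 to 5. TNF-CCI 2 alone lay in the TD-CCI range, and the other 4 TNF-CCI libraries were below all of TD-CCI and below the means of 13.8 CPM in TCF-CCI, 14.4 CPM in Vehicle-CCI and 14.8 CPM in Vehicle-sham. Vehicle-sham 5 was as low as these 4, at 5.98 CPM. Mitochondrial rRNA took 2.18% of counts in Vehicle-sham 5 and 2.95% to 4.17% in these 4 libraries. It took 10.9% in TNF-CCI 2 and at least 5.56% in every other library of the series. The cause of the low Kcnq1 level was not tested. The log2 fold change of Kcnq1 was -1.07 ± 0.28 (95% interval -1.64 to -0.49, edgeR adjusted p = 1). LOC120099961, a locus inside Kcnq1 on the other strand that was chosen after its values were seen, measured 20.2 to 50.1 CPM in TNF-CCI and 52.6 to 64.9 CPM in TD-CCI, also with TNF-CCI 2 the highest of its group. Vehicle-sham 5 was low for this locus too, at 22.6 CPM. How reads were divided between the pair is uncertain, since the strand setting is not stated. Ccdc77, a centrosomal coiled-coil protein, measured 11.9, 13.2, 21.1, 18.1 and 19.4 CPM in TNF-CCI 1 to 5, against 12.9, 10.1, 10.9, 6.45 and 8.09 CPM in TD-CCI 1 to 5, with 4 TNF-CCI libraries above all TD-CCI libraries. Asb15, a substrate adaptor of ubiquitin ligases in muscle, had the highest fitted log2 fold change, 5.35 ± 1.18, from TNF-CCI 2 at 40.9 CPM. The other TNF-CCI libraries measured 0.247 to 0.488 CPM and the TD-CCI libraries 0.166 to 0.225 CPM, so the groups did not overlap and yet 1 library gave the fold. Without TNF-CCI 2 the log2 fold change of Asb15 was 0.66.

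LOC120097130 (chr15:26111843-26113948, plus strand), which RefSeq lists as a variable gene segment, was the second gene that DESeq2 called. It measured 0.366, 0.281, 0.0526, 0.102 and 0 CPM in TNF-CCI 1 to 5, where the count of 0 allows up to 0.0619 CPM, against 4.02, 9.24, 5.02, 3.71 and 0.0332 CPM in TD-CCI 1 to 5. TD-CCI 5 was as low as TNF-CCI, so the groups overlapped, and 1 TCF-CCI and 1 Vehicle-CCI library were near 0 too. Means were 4.10 CPM in TCF-CCI, 4.98 CPM in Vehicle-CCI and 7.05 CPM in Vehicle-sham. Such segments have near-identical copies, so reads shared between copies make this level uncertain.

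The other lists are given by count and median. Ribosomal protein genes of the cytosol had 19 of 24 above 0 and a median log2 fold change of 0.21, and TNF-CCI 2, the library with the high mitochondrial rRNA share, had their highest sum, 12300 CPM against 7330 to 8850 CPM in the other TNF-CCI libraries and 7020 to 9930 CPM in TD-CCI. Without TNF-CCI 2 that median was 0.11. Nuclear genes of oxidative phosphorylation had 8 of 25 above 0 and a median of -0.03, cholesterol synthesis genes 6 of 22 and -0.13, and chaperones and unfolded protein response genes 9 of 24 and -0.09. Myelin genes had 2 of 16 above 0 and a median of -0.11, and precursors of oligodendrocytes 3 of 12 and -0.05. Glutamate receptor and postsynaptic genes had 8 of 22 above 0 and a median of -0.06, and synaptic vesicle genes 8 of 20 and -0.05. Ciliated ependyma had 17 of 20 above 0 and a median of 0.16, although Dnah12, an axonemal dynein, ran from 54.0 to 137 CPM in TNF-CCI and from 48.1 to 128 CPM in TD-CCI. Choroid plexus genes had 11 of 16 above 0 and a median of 0.18, which was -0.24 without TNF-CCI 5 and 0.79 without TD-CCI 1. The ependymal median was -0.03 without TNF-CCI 3 and the myelin median 0.05 without TD-CCI 4. Neurotrophins and their receptors had 7 of 13 above 0 and a median of 0.0040, glucocorticoid targets 9 of 16 and 0.02, chromatin regulators of synaptic genes 9 of 22 and -0.03, and neocortical and striatal genes 9 of 18 and -0.0089. Over the 37 lists, the median kept its sign whichever library was left out in 16, of which 10 were above 0 and 6 below, and took the other sign in 21.

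Blood genes were high in 2 of the TNF-CCI libraries, and also in libraries of other groups. The 11 genes of neutrophils and blood had 9 above 0 and a median log2 fold change of 0.61, the highest of the 37 lists in this fit. It was 0.34 without TNF-CCI 2 and 0.15 with limma voom, where the interferon median was 0.28. Their summed level was 620 and 561 CPM in TNF-CCI 1 and 2 and 142 to 219 CPM in the other TNF-CCI libraries, against 161 to 285 CPM in TD-CCI. It ran from 113 to 468 CPM in TCF-CCI, 148 to 701 CPM in Vehicle-CCI and 59.8 to 1680 CPM in Vehicle-sham. Hba-a2, a haemoglobin alpha chain, measured 103, 80.0, 19, 17 and 27.9 CPM in TNF-CCI 1 to 5, against 17.9, 22.7, 30.7, 39.3 and 21.8 CPM in TD-CCI 1 to 5. The other 3 TNF-CCI libraries thus lay within or below the TD-CCI range. Mpo, a neutrophil gene with the smallest p of the list, went the other way, with a log2 fold change of -1.12 ± 0.49. It was low in both groups, with means of 0.153 CPM in TNF-CCI and 0.340 CPM in TD-CCI. The part of blood left in the tissue in the other results of these libraries was not tested.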

How the data were processed

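The deposited table held whole-number read counts per gene, as the authors made them with nothing normalised, 1 column per library, with exon positions on mRatBN7.2. The submitters' processing notes list, with no versions, the tools STAR, Salmon, featureCounts and DESeq2. Overlapping and antisense genes are uncertain, because no source used here states the strand setting; 18 of the 77 named genes overlap a tested gene on the other strand. The 7 genes with empty cells were left out, and 21064 of 34322 passed filterByExpr. The authors' own tables against sham were not used. Libraries were grouped by their labels.

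All 25 libraries entered 1 fit in edgeR 4.0.16 (R 4.3.3; TMM, robust quasi-likelihood F test, a mean per group, contrast TNF-CCI over TD-CCI), with p-values adjusted over all genes tested at 0.05. Intervals of 95% use the fit's standard errors. CPM and SD were computed here from the counts, after TMM scaling. Totals and rRNA shares were compared by exact permutation over 252 splits. The scripts were tested on simulated data.

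Named genes were fixed by rule: Gfap, Cd68 and Bdnf, the 10 of smallest p and 5 of largest change without overlap in each direction at 1 CPM or more, and the 3 of smallest p in each of 38 lists, of which 37 had tested members. Genes known only by a locus number were counted and not named, apart from LOC120097130 and LOC120099961, and some genes that the rule named are not reported here. Members and lists were chosen with earlier results of these data known. Alternatives were DESeq2 1.42.0 (tool, size factors), limma 3.58.1 voom, other filters, only the 10 libraries, a replicate block, the rRNA share as covariate, an adjusted p under 0.1, and each library left out in turn. The fit without TNF-CCI 1 and TD-CCI 4 was chosen after seeing the data. Floors of 3 counts cover counting error only, since several reads may come from 1 molecule where there are no molecular identifiers. The chi-square per degree of freedom between libraries of a group was 23.7 to 283, where counting error alone gives about 1, so none was a repeat deposit and the spread between libraries set the precision.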

Additional observations from a re-analysis of the deposited data

Results flagged for a closer look

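A gap test was run on sets of 5 libraries, each a named gene, the rRNA share or the library total in 1 group. In 29 of the 158 sets examined, 1 library lay far from the other 4. By chance that test flags about 1 in 20 sets of unselected, normally distributed values, and most of these genes were chosen for their p or change and share libraries, so the number of flags is not read against that rate. TD-CCI 4 had 9, TNF-CCI 1 had 8 and TNF-CCI 2 had 5.

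TNF-CCI 1 was the highest of its group for Lox at 157 CPM against 2.97 CPM in the next library, Cdh23 at 135 against 12.3, Glis3 at 96.5 against 29.3, Timp1 at 62.3 against 10.6, Dbh at 21.9 against 0.928 and Cpg1, a neuronal gene, at 18.2 against 0.842. It was the lowest of its group for Slc17a6 at 5.02 CPM against 8.76 CPM and desmoplakin, Dsp, at 0.829 against 2.66.

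TD-CCI 4 was the highest of its group for Slc17a6 at 115 CPM against 13.6 CPM in the next library, Slc6a11 at 110 against 18.3, Tcf7l2 at 92.4 against 21.2, Kcnc2 at 83.5 against 46.6, Rora, a nuclear receptor of the thalamus list, at 73.9 against 40.2, Shox2 at 23.5 against 0.957, Tfap2d at 17.7 against 0.0844, Mab21l1, a developmental gene, at 10.9 against 2.53 and Drd2 at 7.36 against 1.44. TD-CCI 1 was the highest for Col3a1 at 57.4 CPM against 13.9 CPM.

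TNF-CCI 2 had the highest mitochondrial rRNA share of its group, 10.9% of counts against 4.17%. It was also highest for Rora at 42.5 CPM against 34.2 CPM, Asb15 at 40.9 against 0.488 and Shox2 at 0.477 against 0.0732, and lowest for Slc6a11 at 9.57 against 17.5. TNF-CCI 4 was lowest for Dnah12 at 54.0 CPM against 129 CPM and TNF-CCI 3 for Isg15 at 2.79 against 8.25. TD-CCI 5 was highest for Ifit1 at 3.78 CPM against 0.147 CPM and lowest for Cd55 at 2.99 against 6.17 and LOC120097130 at 0.0332 against 3.71. TD-CCI 3 was lowest for P2ry13 at 7.87 CPM against 10.9 CPM. The causes were not tested.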

How the results depend on the processing

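The count of 0 genes called held under all alternatives except DESeq2's own test, which called 2. Genes at an unadjusted p under 0.05 numbered 517, and 1409 with limma voom, 951 with the rRNA share as covariate, 837 with no filter and 810 without TNF-CCI 2. The rRNA difference ran from -3.23 to -1.25 percentage points on leaving out each library, and was -1.82 over all mitochondrial genes. The difference in library total ran from 4.32 to 7.36 M, with an exact permutation p of up to 0.0794. Of 2683 values for 77 named genes, 22 took the other sign and 66 genes never did. With voom these were RT1-Da at -0.325, Lox at -0.266, Slc6a11 at 0.0671 and Otx2 at 0.295. Without TNF-CCI 1 and TD-CCI 4 together they were Tfap2d at 0.6, Lox at -1.24, Drd2 at 0.143, Sox11 at -0.155, Inhba at -0.186, Nptx2 at -0.0581, Slc6a11 at 0.215 and Otx2 at 0.395. On leaving out each library, log2 fold changes ranged from -0.00346 to 3.24 for Cpg1, -1.07 to 3.26 for Lox, -0.187 to 1.21 for Sox11, -0.192 to 1.81 for Inhba, -0.153 to 0.965 for Nptx2, -1.1 to 0.0157 for Col3a1, -5.91 to 0.611 for Tfap2d, -1.06 to 0.0317 for Drd2, -1.2 to 0.241 for Slc6a11 and -2.28 to 0.298 for Otx2. Tfap2d without TD-CCI 4 was at a few counts in both groups, so its sign there carries no weight, and the other causes were not tested. The median of the interferon list was 0.386 to 0.626 on leaving out each library and 0.283 to 0.484 under the other alternatives. Same-numbered TNF-CCI and TD-CCI libraries had correlations of deviations of 0.0118 to 0.196, the highest for number 1. Library 1 was also the highest of each CCI group in the median deviation of reactive astrocyte genes. It was at 0.801 in TNF-CCI, 0.128 in TD-CCI, 0.0494 in TCF-CCI and 0.406 in Vehicle-CCI, while Vehicle-sham 1 was the lowest of its group at -1.56. What the numbers share was not tested. The fit with the replicate block called 0 genes, with 627 at an unadjusted p under 0.05.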

Other observations

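Some libraries held mRNA of pituitary hormones, which the hippocampus hardly makes. These genes were chosen after their values were seen. Prolactin, Prl, had at most 14 counts in the 5 TNF-CCI libraries, against 111 and 601 counts in TD-CCI 1 and 2 and at most 12 in the other TD-CCI libraries. TCF-CCI 1 had 1113 counts and Vehicle-sham 1 had 492. Growth hormone, Gh1, had at most 10 counts in any TNF-CCI library, against 201 and 486 counts in TD-CCI 1 and 2, 1384 in TCF-CCI 1 and 244 in Vehicle-sham 1. Pomc, the precursor of the pituitary hormone ACTH and also of hypothalamic peptides, had 58 to 110 counts in TNF-CCI, against 2777 and 383 counts in TD-CCI 1 and 2 and 33 to 74 counts in the other TD-CCI libraries. Its log2 fold change of -3.34 ± 0.81 (SE) was -1.19 without TD-CCI 1. Trh, the thyrotropin-releasing hormone of hypothalamus, had 2310 counts in TNF-CCI 1 and 1240 counts in TD-CCI 5, against at most 71 counts in every other of the 25 libraries. Pomc was at 110 counts in TCF-CCI 1 and 51 counts in Vehicle-sham 1, so it was not high wherever Prl and Gh1 were. What put these transcripts there was not tested.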
